A study of Homo sapiens with 4 samples.

Results

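TOLLIP and 8 genes that carry signals from the interleukin-1 receptor and the Toll-like receptors were examined in darolutamide-resistant prostate cancer cells after knockdown of the lncRNA LOC730101. The 9 genes were found by name among 60606 genes of the count table, and all 9 were expressed highly enough to be tested, as were 19349 genes in all. The set was selected on measured values, because TOLLIP had been among the genes with lower counts after the knockdown in an earlier look at these libraries, and the other 8 genes were included as genes of the same pathway. The difference of TOLLIP is therefore given here as a description without a test. The tests of the other 8 genes were read from the fit over all genes.

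The cells were DaroR cells, a subline of the prostate cancer line LNCaP that was selected in rising amounts of darolutamide. Every library thus comes from 1 resistant line. Per the study, these cells were grown with darolutamide in the medium. There were 2 groups with 2 libraries each, DaroR cells transfected with control siRNA (siControl) and DaroR cells transfected with a pool of siRNAs against LOC730101 (siLOC730101). PolyA RNA was sequenced, and the number of reads that fell on the exons of each gene was deposited as a count. The comparison asks what differs in resistant cells after knockdown of LOC730101 with this pool. With these 2 groups, other effects of the pool cannot be told apart from those of the knockdown. The sample labels do not say whether the 2 libraries of a group came from separate cultures, so the p-values measure the spread between these libraries, which may be technical.

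The library totals ranged from 39213498 to 53368158 counts, and the siLOC730101 libraries together held 80.4% of the siControl total. Counts were scaled by the TMM method of edgeR and are given as normalized CPM, the counts per 1000000 of the scaled library. LOC730101 itself, listed as ENSG00000216775, had a mean of 49.0 normalized CPM under siControl (SD 2.32, n = 2) and of 16.7 under siLOC730101 (SD 1.77, n = 2). All 10 luminal prostate markers, among them KLK3, had more than 1 normalized CPM in every library, and their summed level was 7178 to 7950 in siControl and 7692 to 8038 in siLOC730101. The 8 monocyte and macrophage markers summed to 1.79 and 2.18 in siControl and to 2.04 and 1.13 in siLOC730101, with AIF1 at 0 in all 4 libraries. Of the 4 lymphocyte markers, PTPRC, CD3E and MS4A1 were at 0 in all 4 libraries. The 5 fibroblast markers had a summed level of 13.9 normalized CPM in the lowest library, and the 3 endothelial markers summed to 5.84 to 9.44. Summed over all cells of a culture, fewer cells that express a gene and less RNA per cell cannot be told apart.

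Toll-like receptors and most receptors of the interleukin-1 family share an intracellular TIR domain. In many of these receptors, ligand binding lets this domain recruit the adaptor MYD88, which assembles the kinases IRAK4, IRAK1 and IRAK2. These kinases hand the signal to the ubiquitin ligase TRAF6 and onward to NF-kB and MAP kinases. TOLLIP, the Toll-interacting protein, binds IRAK1 and is known as a brake on this relay. It also binds ubiquitin through its CUE domain and works with TOM1 in sorting cargo at endosomes and in autophagy.

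TOLLIP lies on chromosome 11 of GRCh38 from 1274371 to 1309654, on the minus strand. The deposited counts of TOLLIP were 9768 and 8993 under siControl, against 4588 and 4586 under siLOC730101. Scaled to the libraries, this was 181 and 192 normalized CPM in siControl and 112 and 121 normalized CPM in siLOC730101. Both siLOC730101 libraries were below both siControl libraries, and the gap between the groups was wider than the spread within either group. The mean level was 186 under siControl (SD 8.09, n = 2) and 116 under siLOC730101 (SD 6.45, n = 2), or 37.6% lower. The log2 fold change was -0.68 with a standard error of 0.080. The 95% interval of the fit, from -0.85 to -0.51, takes no account of the choice of TOLLIP on this contrast. With any 1 library left out, the log2 fold change of TOLLIP lay between -0.74 and -0.62.

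The start of TOLLIP is shown because another transcript starts beside it. TOLLIP-DT, a noncoding RNA on the opposite strand, begins 115 bases upstream of the TOLLIP start. In the RefSeq promoter table (GRCh38.p14), the 300 bases around the TOLLIP start, chr11:1309583-1309882 on the minus strand, were 75.7% G and C. The capitals mark the 114 bases that the count table gives to the exon of TOLLIP-DT, and the last 72 bases belong to the first exon of TOLLIP.
TOLLIP promoter: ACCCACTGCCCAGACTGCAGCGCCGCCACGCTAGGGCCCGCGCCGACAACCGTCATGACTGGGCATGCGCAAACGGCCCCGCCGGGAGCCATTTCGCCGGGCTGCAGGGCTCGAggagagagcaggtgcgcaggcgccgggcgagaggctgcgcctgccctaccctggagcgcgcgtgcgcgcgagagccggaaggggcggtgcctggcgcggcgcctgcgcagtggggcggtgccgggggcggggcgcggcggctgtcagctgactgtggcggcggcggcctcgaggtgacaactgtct

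The genes around TOLLIP were compared in the same fit. TOLLIP-DT had 10.2 and 14.3 normalized CPM in siControl and 10.8 and 13.4 normalized CPM in siLOC730101. The groups overlapped, and the log2 fold change of TOLLIP-DT was -0.019 (95% interval -0.42 to 0.38, adjusted p = 0.989, edgeR). This interval does not reach the log2 fold change of TOLLIP, but TOLLIP was chosen on that value. The difference between the 2 genes was not tested. Of the 9 genes within 100000 bases of TOLLIP, TOLLIP-DT included, 5 were tested, with an adjusted p between 0.455 and 0.989 in edgeR.

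The mucin gene MUC5B, beyond the 3′ end of TOLLIP, had 100 and 10 counts under siControl, against 63 and 79 under siLOC730101, so that 1 siControl library stood apart from the other 3 libraries. MUC5AC, the next mucin gene, had between 18 and 50 counts in a library. BRSK2, a kinase gene 80245 bases away on the other side, had 8.81 and 11.6 normalized CPM in siControl and 6.94 and 9.40 in siLOC730101, and the groups overlapped (log2 fold change -0.32, adjusted p = 0.619 in edgeR). The gene ENSG00000287935 had 62 and 70 counts under siControl, against 12 and 30 under siLOC730101. Its log2 fold change was -1.29 (95% interval -2.56 to -0.014). Its unadjusted p was 0.0478 and its adjusted p was 0.455 in edgeR, the smallest among these neighbours.

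**Figure D1:**
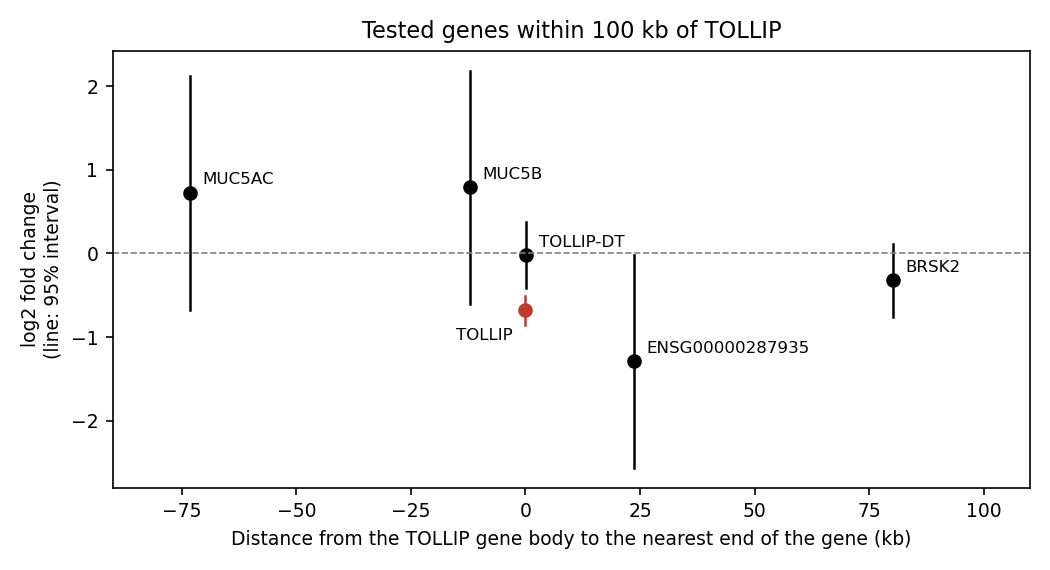
Log2 fold change of TOLLIP and of the 5 tested genes within 100000 bases of it (vertical axis, with the 95% interval as a line) against the distance from the TOLLIP gene body in kilobases (horizontal axis). TOLLIP (red) lies at -0.68 with a short interval, and TOLLIP-DT beside it lies at -0.019. ENSG00000287935 lies at -1.29, and this gene and the mucin genes have wide intervals.

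The 3′ UTRs of the 9 genes were searched for 3 short sequences on the transcript strand. TCCCGTG and CCCGTGT had been picked from a scan of these same libraries for 7mers whose carriers were lower after the knockdown, so their presence in TOLLIP is a description. ACATTCC is the match to bases 2 to 8 of miR-1-3p, the microRNA whose pairing with LOC730101 the study examined. Transcripts were taken from a GRCh37 annotation, 1 for each gene. The mature miR-1-3p taken from the RefSeq table is encoded on chromosome 20 of GRCh38.p14 from 62554351 to 62554372, and its seed is in capitals. Per the study, another gene on a different chromosome also encodes miR-1-3p. In the sites that follow, the capitals mark the 7mer that was found.
miR-1-3p: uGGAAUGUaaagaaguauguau
TOLLIP, TCCCGTG at base 84: cccaacaagatTCCCGTGaaagagcaccc
TOLLIP, CCCGTGT at base 1868: cccttgagcagCCCGTGTgggggcccgag
TRAF6, TCCCGTG at base 1599: gagaccttgttTCCCGTGccaccattagt
IL1R1, ACATTCC at base 1648: tatgtttaaaaACATTCCccaattatctt
IL1R1, ACATTCC at base 2668: aggaagaagacACATTCCtagttccccgt

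TOLLIP held 2 copies of TCCCGTG and 2 copies of CCCGTGT in a 3′ UTR of 2668 bases. Of these 4 copies, 3 lay together within 36 bases near the start of the 3′ UTR, at bases 84, 99 and 113. The first copy lies at chr11:1298168-1298196 of GRCh37 with the flanks shown, on the minus strand as TOLLIP. TRAF6 held a single TCCCGTG in a 3′ UTR of 6069 bases, on chromosome 11 of GRCh37 from 36509783 to 36509789. Among the other 7 genes, 0 copies of either 7mer were found. IL1R1 was the one gene of the 9 with ACATTCC, which it held at 2 places on chromosome 2 of GRCh37, with the first from 102794867 to 102794873. Among 13455 tested genes with an annotated 3′ UTR, 4.18% held TCCCGTG, 4.88% held CCCGTGT and 13.27% held ACATTCC.

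The same search placed TOLLIP among the other carriers. Of the 13455 genes, 563 held TCCCGTG at least once, and 29 genes including TOLLIP held it 2 or more times. The median log2 fold change was -0.13 for the 28 genes that held it 2 or more times other than TOLLIP, -0.026 for the 534 genes that held it once and 0.019 for the 12892 genes that did not hold it. Of the 28 genes, 19 had a log2 fold change below 0, and the smallest adjusted p was 0.0920 in edgeR, for PRRC2B, which is named after its values were seen. Of the 10 genes with an annotated 3′ UTR that passed the test as lower, 7 held TCCCGTG, TOLLIP included, and of the 41 that passed as higher, 0 held it. The 7mer was taken from these libraries because its carriers were lower. The medians and counts are therefore shaped by that choice, describe these libraries and are not a test. The length of the 3′ UTR was not taken into account. The sequences of the siRNAs were not used here.

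The levels of the 9 genes were compared per kilobase of exon, since the genes differ in length. In siControl, IRAK1 had the highest level of the 9 genes, with 56.3 and 54.5 normalized CPM per kilobase, followed by TOLLIP with 30.2 and 32.1. SIGIRR had 17.7 and 18.6 normalized CPM per kilobase, IL1R1 had 8.71 and 9.17, and IRAK4 had 6.65 and 6.62. MYD88 had 4.64 and 4.79, TRAF6 had 1.82 and 1.83, IRAK2 had 1.81 and 1.04, and IL1RAP had 0.615 and 0.928 normalized CPM per kilobase. The 2 siControl libraries gave the same order for all 9 genes, and in this order no gene overlapped the next one, although TRAF6 and IRAK2 were close in replicate 1.

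In siLOC730101 the order differed at 2 places. TOLLIP had 18.7 and 20.2 normalized CPM per kilobase and SIGIRR had 18.5 and 20.8, so that the brakes TOLLIP and SIGIRR overlapped, whereas TOLLIP lay above SIGIRR in both siControl libraries. TRAF6 with 1.77 and 1.67 and IRAK2 with 1.61 and 1.95 normalized CPM per kilobase also overlapped. The other 5 genes kept their places.

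**Figure D2:**
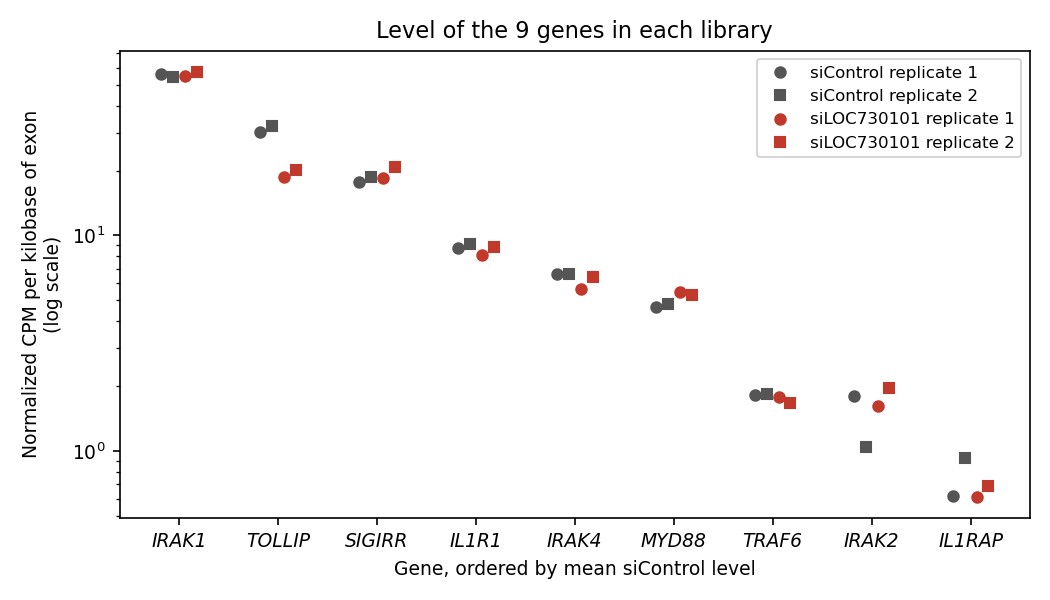
Normalized CPM per kilobase of exon (vertical axis, log scale) of the 9 genes in each of the 4 libraries, with siControl in grey and siLOC730101 in red and replicates 1 and 2 as circles and squares. The levels run from below 1 for IL1RAP to above 50 for IRAK1, and TOLLIP is the gene whose red points lie farthest below its grey points.

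Apart from TOLLIP, 0 of the 8 genes passed an adjusted p of 0.05 in edgeR, 0 had an unadjusted p under 0.05, and 0 passed in DESeq2. DESeq2 gave no adjusted p for IRAK2 and IL1RAP, whose unadjusted p in DESeq2 was 0.336 and 0.368. TOLLIP was chosen on this contrast and is not counted. In the fit over all genes, 0.284% of the genes passed this threshold, 0.0724% as lower and 0.212% as higher. In IRAK4 and TRAF6 both siLOC730101 libraries were below both siControl libraries, as in 20.5% of all genes tested, and in MYD88 both were above, as in 21.3%. The count of 2 lower and 1 higher among the 8 genes was thus near the background. The median log2 fold change was -0.029 for the 8 genes and -0.0021 for all genes tested.

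The receptors of the set were examined first. IL1R1, the receptor chain that binds interleukin-1, lies on chromosome 2 from 102064544 to 102179874. It had 62.0 and 65.3 normalized CPM in siControl and 58.1 and 62.8 in siLOC730101. The groups overlapped, and the log2 fold change of -0.075 had a 95% interval from -0.27 to 0.12 (adjusted p = 0.842, edgeR). The exons of IL1R1 share 11 bases with IL1R1-AS1, which had 0 counts in all 4 libraries.

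IL1RAP, the co-receptor that completes the signalling complex of IL1R1, lies on chromosome 3 from 190514051 to 190659750. It had 7.10 and 10.7 normalized CPM in siControl and 7.08 and 7.95 in siLOC730101, so that siControl replicate 2 was high and the other 3 libraries lay close together. The log2 fold change was -0.24 (95% interval -0.70 to 0.21, adjusted p = 0.756, edgeR). Leaving out siControl replicate 1 gave -0.51, and leaving out siControl replicate 2 gave 0.084. The exons of IL1RAP share 535 bases, 4.63% of their length, with ENSG00000273370 on the same strand, which had 0 counts in all 4 libraries.

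SIGIRR, an inhibitory receptor of the same family, lies on chromosome 11 from 405716 to 417455, on the chromosome of TOLLIP and TRAF6. It had 61.8 and 65.0 normalized CPM in siControl and 64.8 and 72.7 in siLOC730101, with a log2 fold change of 0.12 (95% interval -0.080 to 0.31, adjusted p = 0.716, edgeR).

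The adaptor MYD88 lies on chromosome 3 from 38138478 to 38143024. It had 19.8 and 20.4 normalized CPM in siControl and 23.4 and 22.7 in siLOC730101. Both siLOC730101 libraries were above both siControl libraries, but the log2 fold change of 0.20 (95% interval -0.062 to 0.45) did not pass the threshold (adjusted p = 0.606, edgeR).

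IRAK4, the kinase that MYD88 recruits first, lies on chromosome 12 from 43758944 to 43798307. It had 48.6 and 48.3 normalized CPM in siControl and 41.1 and 46.7 in siLOC730101, with a log2 fold change of -0.14 (95% interval -0.36 to 0.070, adjusted p = 0.665, edgeR). Its exons share 103 bases, 1.41% of their length, with TWF1 on the other strand, and the counting command names no strand option. The log2 fold change of TWF1 was -0.026 (adjusted p = 0.951 in edgeR).

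IRAK1, the kinase to which TOLLIP binds, lies on chromosome X from 154010506 to 154019902. It had 240.2 and 232 normalized CPM in siControl and 233 and 245 in siLOC730101, the highest counts of the set. The groups overlapped. The log2 fold change was 0.017, and the 95% interval from -0.14 to 0.17 corresponds to 0.907-fold to 1.13-fold (adjusted p = 0.969, edgeR). The direction of IRAK1 differed between scalings, with -0.015 for upper-quartile factors and -0.021 for library size only.

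IRAK2, the kinase that sustains the signal after IRAK1, lies on chromosome 3 from 10164919 to 10243745. IRAK2 counts were 335 and 167 under siControl and 227 and 254 under siLOC730101, which gave 6.20 and 3.57 against 5.53 and 6.69 normalized CPM. The siControl libraries were farther apart than the group means. The log2 fold change of 0.32 (95% interval -0.25 to 0.88, adjusted p = 0.734, edgeR) became 0.78 when siControl replicate 1 was left out and -0.019 when siControl replicate 2 was. TRAF6, the ubiquitin ligase at the end of the relay, lies on chromosome 11 from 36483769 to 36510272. It had 14.8 and 14.8 normalized CPM in siControl and 14.4 and 13.6 in siLOC730101, with a log2 fold change of -0.084 (95% interval -0.39 to 0.22, adjusted p = 0.901, edgeR).

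**Figure D3:**
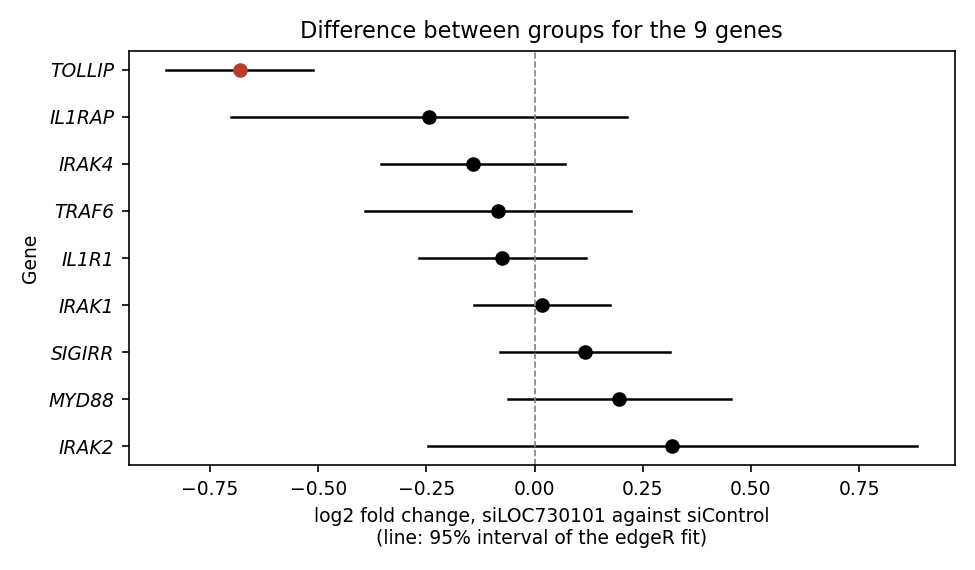
Log2 fold change of siLOC730101 against siControl for the 9 genes (points), with the 95% interval of the edgeR fit (lines). The intervals of the 8 genes other than TOLLIP include 0 and are widest for IRAK2 and IL1RAP. That of TOLLIP runs from -0.85 to -0.51 and takes no account of its choice on this contrast.

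The rest of the pathway was examined with 133 further genes in 11 lists. Of these, 101 were expressed highly enough to be tested and 13 had 0 counts in all 4 libraries. In edgeR 0 of the 101 genes passed an adjusted p of 0.05, while 11 had an unadjusted p under 0.05. In DESeq2 1 gene passed, MAP2K4, as lower, while 64 genes passed as lower and 233 as higher over all genes of that fit. The median log2 fold change of the 101 genes was 0.067, with 59 genes above 0 and 42 below. Over all 19349 genes tested, 2094 had an unadjusted p under 0.05, and 9602 had a log2 fold change above 0 and 9747 below.

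Of the ligands and receptors upstream of the adaptor, many had few counts. Of 12 ligands and antagonists of the interleukin-1 family, 5 were tested and 4 had 0 counts in all libraries. The secreted inhibitor IL18BP had the highest siControl mean of this list per kilobase, with 1.09 and 1.08 normalized CPM per kilobase. Of 7 further receptors of the family, 3 were tested, and IL1RAPL1, known from neurons, had 1.62 and 1.73 normalized CPM per kilobase in siControl. Among 15 Toll-like receptors and proteins that serve them, 9 were tested, and the chaperones HSP90B1 and CNPY3 had the highest siControl levels per kilobase. HSP90B1 had 74.9 and 71.3 normalized CPM per kilobase in siControl and a log2 fold change of -0.10 and an adjusted p of 0.640 in edgeR.

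Among the adaptors other than MYD88, TICAM1, which links some Toll-like receptors to interferon genes, had 28.2 and 24.5 normalized CPM in siControl and 31.0 and 33.5 in siLOC730101. Its log2 fold change of 0.29 had an unadjusted p of 0.0247 and an adjusted p of 0.353 in edgeR. For TIRAP, the bridge between some receptors and MYD88, the log2 fold change was 0.073 (adjusted p = 0.903 in edgeR). IRAK3, the IRAK that acts as a brake, was not tested, with 0, 0, 0 and 4 counts in the 4 libraries. The Pellino ubiquitin ligases PELI3 and PELI1, which act on IRAKs, had log2 fold changes of 0.15 and -0.16, and neither passed the threshold (adjusted p of 0.731 and 0.813 in edgeR).

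Downstream of TRAF6, all 24 genes of the TRAF, TAK1 and IKK list were tested. Of these, 13 had a log2 fold change below 0 and 11 above, and the median was -0.012. UBE2N, the enzyme that builds ubiquitin chains with TRAF6, had 128 and 134 normalized CPM in siControl and 142 and 143 in siLOC730101, with a log2 fold change of 0.12 and an adjusted p of 0.635 in edgeR. MAP2K4, a kinase that activates JNK, was the gene of the 101 with the smallest p, and it is named here after its values were seen. It had 72.2 and 67.3 normalized CPM in siControl and 52.9 and 52.7 in siLOC730101. Its log2 fold change of -0.40 had a standard error of 0.090 and an adjusted p of 0.0784 in edgeR, and its adjusted p was 0.00828 in DESeq2.

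All 10 genes for NF-kB subunits and their inhibitors were tested, and 9 had a log2 fold change above 0, with a median of 0.11. In 5 of the 10 genes both siLOC730101 libraries were above both siControl libraries, against 21.3% of all genes tested. Of all 19349 genes tested, 9602 had a log2 fold change above 0. The list as a whole was not tested. Of the 10 genes, 0 passed an adjusted p of 0.05 in edgeR or DESeq2, and 1 had an unadjusted p under 0.05. RELA, the main activating subunit, had 79.4 and 78.5 normalized CPM in siControl and 81.8 and 88.8 in siLOC730101 (log2 fold change 0.11, adjusted p = 0.702, edgeR). NFKBIA, the inhibitor that holds RELA in the cytoplasm, had 48.9 and 50.5 normalized CPM in siControl and 57.4 and 52.2 in siLOC730101 (log2 fold change 0.14, adjusted p = 0.646, edgeR).

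Of 22 genes that NF-kB switches on, 11 were tested and 4 had 0 counts in all libraries. Of the 11 genes, 7 had a log2 fold change below 0, and the median was -0.093. SOD2, the mitochondrial superoxide dismutase, had 145 and 153 normalized CPM in siControl and 136 and 131 in siLOC730101, with a log2 fold change of -0.15 and an adjusted p of 0.508 in edgeR. The chemokine gene CCL20 had 9.84 and 10.3 normalized CPM in siControl and 8.81 and 10.1 in siLOC730101, and the groups overlapped. Of 13 further brakes on the pathway, 12 were tested, with a median log2 fold change of 0.089. Per kilobase of exon, ATF3 and DUSP1 had the highest siControl levels of that list, and their log2 fold changes of 0.14 and 0.10 did not pass the threshold (adjusted p of 0.635 and 0.816 in edgeR).

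The partners of TOLLIP outside the receptor pathway were compared last. All 15 genes of the list of endosomal partners and ubiquitin-binding autophagy receptors were tested, 8 with a log2 fold change above 0 and 7 below, between -0.15 and 0.27. CLTC, the clathrin heavy chain, had 893 and 846 normalized CPM in siControl and 842 and 762 in siLOC730101 (log2 fold change -0.12, adjusted p = 0.609, edgeR). SQSTM1, the autophagy receptor p62, had 301 and 331 normalized CPM in siControl and 361 and 383 in siLOC730101, with both siLOC730101 libraries higher and a log2 fold change of 0.24 (unadjusted p = 0.00688, adjusted p = 0.221, edgeR). TOM1, the endosomal partner to which TOLLIP binds, had 47.4 and 42.4 normalized CPM in siControl and 51.4 and 56.7 in siLOC730101 (log2 fold change 0.27, adjusted p = 0.307, edgeR). TOM1 is named here after its values were seen. Of 7 other genes with a CUE domain, 6 were tested. The highest per kilobase in siControl were AUP1 and CUEDC2, and CUEDC2 had 51.1 and 59.8 normalized CPM in siControl and 64.6 and 81.5 in siLOC730101 (log2 fold change 0.40, adjusted p = 0.166, edgeR).

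**Figure D4:**
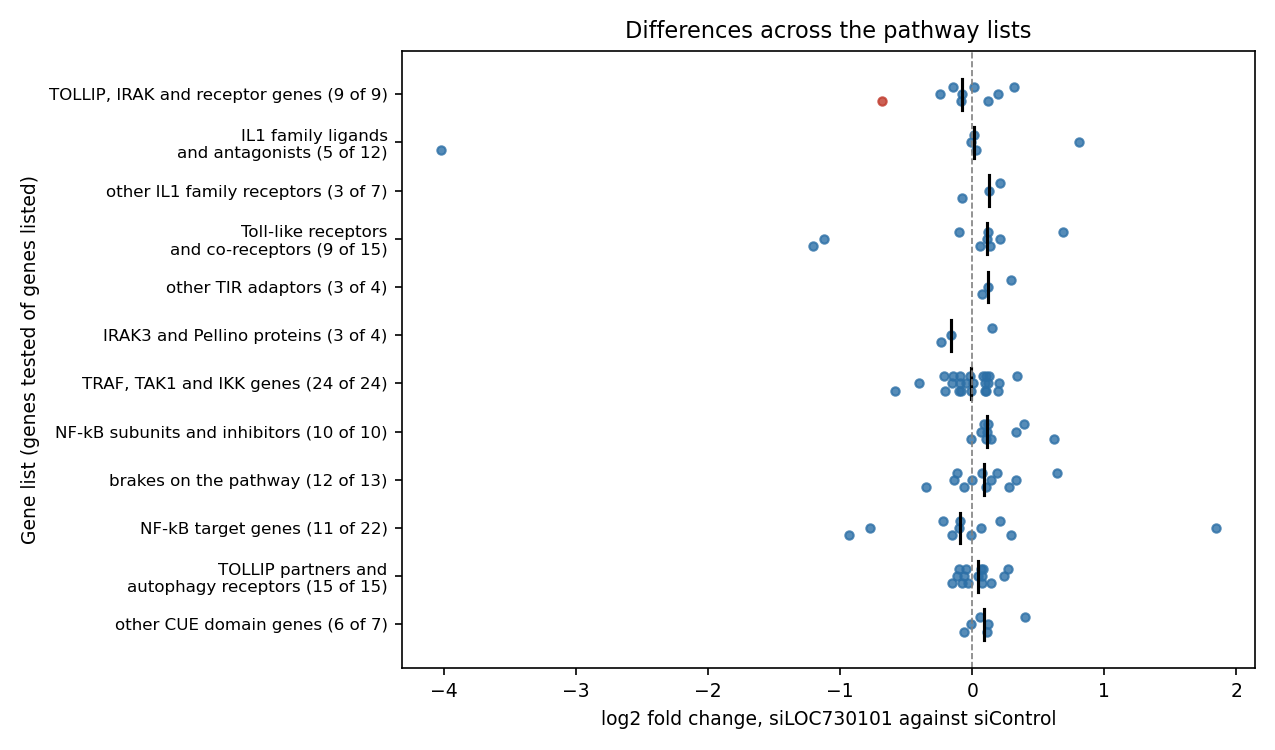
Log2 fold change of siLOC730101 against siControl (horizontal axis) for each tested gene of the 12 lists, 1 point for each gene and a black bar for the median of the list, with the number tested of the number listed in parentheses. TOLLIP is red, and the list medians lie close to 0. The points farthest from 0 belong to genes with few counts, such as IL1B and CXCL2, while TOLLIP and NFKBIE had more counts.

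The genes whose pattern over the 4 libraries was nearest to TOLLIP were found by the distance between centred log2 normalized CPM values, among 14232 other genes with a mean normalized count above 50. Among the nearest were RN7SL832P, ENSG00000196656, SPOCK2 and ENSG00000246575, at distances of 0.0237 to 0.0886. RN7SL832P, the nearest, had 5.77 and 6.05 normalized CPM in siControl and 3.53 and 3.87 in siLOC730101. The genes were ranked over 4 libraries that share 2 groups, so that the likeness is mostly that of the difference between the groups. None of these 4 genes is a member of the lists examined here.

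**Figure D5:**
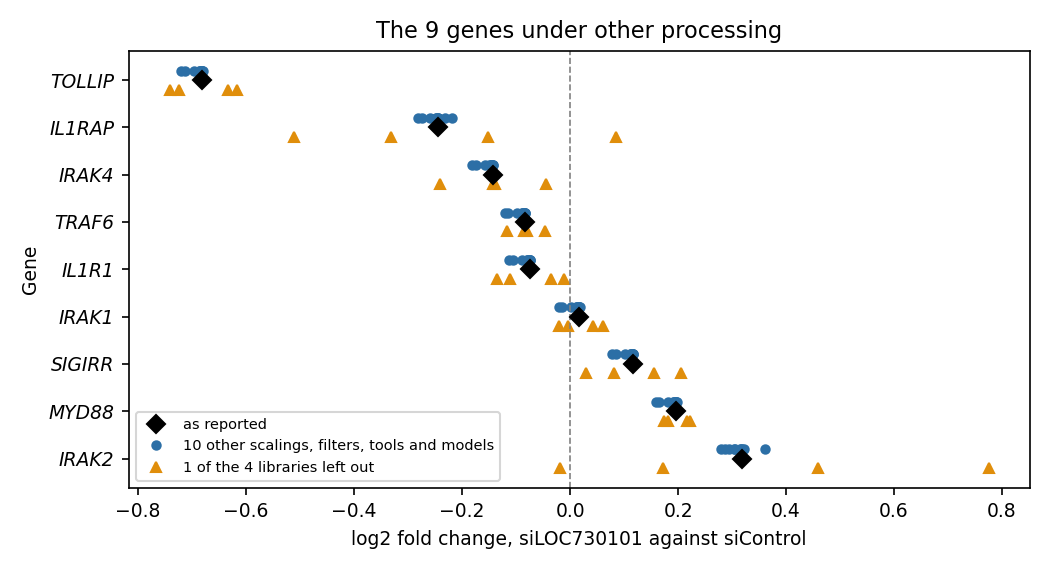
Log2 fold change of the 9 genes as reported (black diamonds), under 10 other scalings, filters, tools and models (blue circles) and with 1 of the 4 libraries left out (orange triangles). TOLLIP stays between -0.74 and -0.62, while IRAK2 and IL1RAP move across 0 without siControl replicate 2.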

How the data were processed

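The deposited values are counts. Per the file headers, the authors used featureCounts 2.0.1 on exons of gencode version 41 (hg38), summed by gene name, without a paired-end or strand option, and did not normalize. The methods of the study name Trim-galore, STAR and hg19, and the submitters' processing notes name Trim Galore, BWA and hg38. Between 66.0% and 70.1% of counts from 1 to 20 were even, so both mates may have been counted. Gene length was also deposited.

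Here, edgeR 4.0.16 in R 4.3.3 was used with filterByExpr, TMM and the quasi-likelihood test (legacy method, no block). P-values were adjusted by Benjamini-Hochberg over 19349 genes, and an adjusted p under 0.05 was the threshold. The 95% intervals use the standard error of the fit. The fit had a biological coefficient of variation of 0.147. Exact permutation of 2 against 2 libraries allows no two-sided p below 0.333, so none was used. The script was tested on simulated counts. Replicates differed beyond counting noise, with a chi-square per degree of freedom of 10.6 for siControl and 13.0 for siLOC730101. Alternatives used DESeq2 1.42.0, other scalings, filters and models, and left out each library.

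The members and lists were chosen with earlier results of these data known. Named are the 9 genes, LOC730101, listed genes past the threshold, the 2 highest siControl levels per list, genes within 100000 bases of TOLLIP or sharing exons with the 9 genes, and the 5 nearest patterns. Values of some of these are given as ranges. 1 of the nearest patterns is not reported here. Sequences were read with Python 3.11.15.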

Additional observations from a re-analysis of the deposited data

How the results depend on the processing

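With 14 alternatives, the log2 fold change of TOLLIP lay between -0.74 and -0.62, given as a description since TOLLIP was chosen on these libraries. MYD88, IRAK4, TRAF6, SIGIRR and IL1R1 kept their direction in all 14, and 0 of the 8 other members passed the threshold in any. For IRAK2 and IL1RAP, DESeq2 gave no adjusted p. IRAK1 changed direction with upper-quartile factors (-0.015), with library size only (-0.021), without siControl replicate 2 (-0.0041) and without siLOC730101 replicate 2 (-0.021). IRAK2 (-0.019) and IL1RAP (0.084) changed direction without siControl replicate 2. With 1 library left out, IRAK1 ranged from -0.021 to 0.060, IRAK2 from -0.019 to 0.78 and IL1RAP from -0.51 to 0.084. The values of 4 others moved most with a siLOC730101 library left out. Without replicate 1 and without replicate 2 of siLOC730101, SIGIRR was 0.21 and 0.029, IRAK4 -0.044 and -0.24, IL1R1 -0.011 and -0.13, and TRAF6 -0.12 and -0.047. IL1R1 was -0.035 without siControl replicate 2.

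The number of other pathway genes called was 0 in both directions as reported. It was 1 higher (CUEDC2) and 1 lower (MAP2K4) with no filter beyond 1 count, and 1 lower (MAP2K4) with library size only, with a CPM of at least 1 in 2 libraries, with DESeq2 and with halved counts. With 1 library left out, 0 to 7 were higher and 0 to 1 lower (MAP2K4, without either siLOC730101 replicate). The 1 higher gene without siControl replicate 2 was CUEDC2. The 7 were AUP1, CUEDC2, MAP2K7, NFKBIE, SQSTM1, TNIP2 and TOM1, without siLOC730101 replicate 1.

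Over all genes tested, 41 higher and 14 lower genes became 324 and 113 with no filter beyond 1 count, 103 and 37 with a CPM of at least 1 in 2 libraries, 233 and 64 with DESeq2, 87 and 24 without the legacy method, and 113 and 35 with halved counts. With library size only, 58 were higher and 35 lower. Without 1 library, 77 to 923 were higher and 26 to 272 lower, namely 117 and 49 without siControl replicate 1, 111 and 26 without siControl replicate 2, 923 and 272 without siLOC730101 replicate 1, and 77 and 60 without siLOC730101 replicate 2. The cause was not tested. A group with 1 library left is assumed to vary like the other group.

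The titles number the replicates in both groups, and the deviations of same-numbered libraries correlated by 0.027 over the genes tested. This correlation cannot settle whether same-numbered libraries were prepared together, and the titles do not say. The replicate block gave 485 higher and 167 lower genes, and among the other pathway genes 3 higher (CUEDC2, NFKBIE and SQSTM1) and 1 lower (MAP2K4). Of the 133 other pathway genes, 32 had too few counts to be tested.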

Other observations

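Among the ligands, receptors and target genes with few counts, some did not overlap between the groups, as 20.5% of all genes tested did in the lower and 21.3% in the higher direction. They are named here after their values were seen. IL1B, the gene of interleukin-1 beta, had 22 and 23 counts under siControl, against 2 and 0 under siLOC730101 (unadjusted p = 0.00932, adjusted p = 0.249, edgeR). TLR4, the receptor for lipopolysaccharide, had 34 and 22 counts under siControl, against 12 and 8 under siLOC730101 (adjusted p = 0.696, edgeR). TLR6, which pairs with TLR2, had 24 and 24 counts under siControl, against 4 and 12 under siLOC730101 (adjusted p = 0.715, edgeR). CXCL2, a chemokine gene that NF-kB switches on, had 8 and 2 counts under siControl, against 14 and 14 under siLOC730101 (adjusted p = 0.602, edgeR). NFKBIE, the inhibitor IkB epsilon, had more counts, with 7.25 and 6.92 normalized CPM in siControl and 9.64 and 12.2 in siLOC730101 (log2 fold change 0.62, unadjusted p = 0.00464, adjusted p = 0.181, edgeR). CXCL8, a further chemokine gene, had 1.78 and 2.22 normalized CPM in siControl and 2.04 and 1.69 in siLOC730101, and the groups overlapped.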
